A study of Drosophila melanogaster with 12 samples.

Results

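The genes described here are 8 *Drosophila melanogaster* genes of epithelial polarity and cell adhesion, out of 14977 genes in the deposited table. They were taken from the table by symbol, and all 8 were found. They are *shg* (DE-cadherin), the apical genes *crb* and *sdt*, the Par genes *baz* and *par-6*, and the basolateral genes *l(2)gl*, *dlg1* and *scrib*.

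An epithelial cell keeps an apical surface, a belt of adherens junctions below it and a basolateral surface apart from each other. The Crumbs and Par proteins act on the apical side and the Scribble module on the basolateral side, and each side holds the other out of its own domain. In the fly embryo this order is set up when the blastoderm forms cells, and the egg is loaded by the mother with RNA and protein for it.

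Whole embryos were collected at 6 timepoints after egg laying. T1 covered the first 45 min and T2 the time from there to 90 min, T3 ran from 1.5 to 6 h, T4 up to 12 h, T5 up to 18 h and T6 up to 24 h. No treatment is listed for any group, and the strain is given as Canton S by the growth protocol and as yw by the strain entry. From the RNA of each timepoint 1 mRNA-seq library and 1 miCLIP library were made, in which poly(A) RNA fragments bound by an Abcam anti-m6A antibody are sequenced. The reads of a gene in miCLIP thus follow both the amount of its RNA and how well the antibody pulls it down, and the ratio of miCLIP to mRNA-seq sets the RNA amount aside.

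Levels are in FPKM, in which reads are divided by gene length and a factor for the library. That factor did not follow the reads on genes, so differences between libraries carry it. In mRNA-seq *shg* had 31.97 FPKM from 7048 reads in T1 and 18.09 from 1643 in T6. These libraries held 25074101 and 23640455 reads on genes. With 1 library per assay and timepoint there is no replicate, so no step and no ratio within a timepoint has a test, and each describes these libraries only. The libraries held 4251686 to 14484576 reads on genes in miCLIP and 23127955 to 25486971 in mRNA-seq, and the 8 genes had 405 to 17399 reads per library. The intervals given are 95% counting intervals on these reads, and they cover counting error only. The labelled ages were checked against marker genes in mRNA-seq. The sum of 4 maternal genes was 438.1 FPKM in T1 and 69.2 in T3. It was 110.6 in T5, where *gcl*, one of the 4, was at 105.7, above its 76.6 in T1. That of 5 early zygotic genes was highest in T3 (187.9), and that of 3 neuronal genes was 1.89 in T1 and 102.2 in T5. The sum of all FPKM values was not fixed and ran from 314435 in T1 to 1060882 in T6 in mRNA-seq, so differences between libraries were also computed after scaling all libraries to an equal sum ("scaled"). T6 miCLIP ranked 4802 genes (FPKM 1 or more in every library) more like T5 mRNA-seq (Spearman correlation 0.781) than like T6 mRNA-seq (0.637), so T6 ratios are also given over T5 mRNA-seq. The T1 pair was the least alike of all pairs of the same timepoint (0.590), and T2 miCLIP was slightly closer to T1 (0.805) than to T2 mRNA-seq (0.788).

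*shg* encodes DE-cadherin, the transmembrane protein that joins epithelial cells at adherens junctions. In mRNA-seq, *shg* had 32.0 FPKM at T1, 33.5 at T2, 72.6 at T3, 83.2 at T4, 36.5 at T5 and 18.1 at T6. In miCLIP, *shg* was at 24.2, 33.9, 105, 111, 74.0 and 92.8. Both assays were high in T3 and T4, but in T6 *shg* had its lowest mRNA-seq level while its miCLIP level, as deposited, was nearer to that of T3 than to those of T1 and T2. As these are whole embryos, fewer cells with the message and less message per cell cannot be told apart, for *shg* and for every gene below.

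*crb* encodes Crumbs, the apical transmembrane protein, and *sdt* encodes Stardust, the scaffold that binds the Crumbs tail. In mRNA-seq, *crb* had 17.3 FPKM at T1, 14.6 at T2, 14.3 at T3, 32.3 at T4, 15.5 at T5 and 8.62 at T6. In miCLIP, *crb* was at 27.8, 21.4, 26.4, 30.4, 25.5 and 24.0. As deposited, T4 was the highest library in both assays, but it stood out in mRNA-seq only. In miCLIP the highest level was only 1.42 times the lowest, against 3.74 times in mRNA-seq. With the libraries scaled to the same sum, *crb* spanned 2.47-fold in miCLIP and 8.71-fold in mRNA-seq.

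*sdt* had the lowest level of the 8 genes in the early mRNA-seq libraries. In mRNA-seq, *sdt* had 2.69 FPKM at T1, 2.56 at T2, 16.6 at T3, 15.4 at T4, 15.5 at T5 and 10.7 at T6. In miCLIP, *sdt* was at 5.60, 7.67, 25.3, 21.9, 31.8 and 28.3. Both assays were low in T1 and T2 and high from T3 on, and miCLIP was above mRNA-seq in every timepoint. The T1 mRNA-seq level of *sdt* rests on 1096 reads.

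*baz* encodes Bazooka, the fly Par-3, which positions adherens junctions as they first form, and *par-6* encodes an adaptor that holds the kinase aPKC at the apical membrane. In mRNA-seq, *baz* had 13.6 FPKM at T1, 15.2 at T2, 26.7 at T3, 24.4 at T4, 16.0 at T5 and 6.03 at T6. In miCLIP, *baz* was at 38.1, 27.4, 46.6, 46.7, 59.2 and 53.4. After T3 *baz* mRNA was lower at each timepoint, whereas the T5 and T6 miCLIP levels were the highest of the 6 as deposited. With the libraries scaled, *baz* in miCLIP was highest in T3 and lowest in T6, over a range of only 1.74-fold, against 10.3-fold in mRNA-seq.

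*par-6* was at its highest in the early libraries. In mRNA-seq, *par-6* had 36.7 FPKM at T1, 40.4 at T2, 32.9 at T3, 22.8 at T4, 15.2 at T5 and 13.1 at T6. In miCLIP, *par-6* was at 77.9, 48.3, 39.3, 56.7, 38.7 and 26.2. From T2 on the mRNA was lower at every timepoint, and T1 and T6 were the highest and lowest of the miCLIP libraries.

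*l(2)gl* encodes Lethal giant larvae, a basolateral protein that inhibits the apical kinase aPKC and is itself phosphorylated by it. In mRNA-seq, *l(2)gl* had 55.0 FPKM at T1, 55.4 at T2, 83.2 at T3, 60.2 at T4, 129.7 at T5 and 30.0 at T6. In miCLIP, *l(2)gl* was at 46.3, 53.2, 135, 78.7, 108 and 110.3. T5 and T6, as deposited the highest and the lowest mRNA-seq libraries (T3 was highest when scaled), had nearly the same level in miCLIP.

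*dlg1* encodes Discs large, a membrane-associated scaffold of the lateral membrane and of synapses. In mRNA-seq, *dlg1* had 11.1 FPKM at T1, 10.04 at T2, 18.6 at T3, 16.9 at T4, 23.9 at T5 and 19.6 at T6. In miCLIP, *dlg1* was at 15.5, 14.9, 47.9, 38.8, 58.6 and 43.5. As deposited, the assays went up and down at the same steps, and from T3 on the miCLIP level was over 2 times the mRNA-seq level.

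*scrib* encodes Scribble, the third basolateral scaffold. In mRNA-seq, *scrib* had 12.9 FPKM at T1, 13.1 at T2, 19.8 at T3, 20.1 at T4, 48.2 at T5 and 22.2 at T6. In miCLIP, *scrib* was at 20.1, 9.18, 20.003, 20.6, 62.6 and 44.4. T5 stood out as the highest library in both assays, and in T3 and T4 the assays gave nearly the same level.

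**Figure D1:**
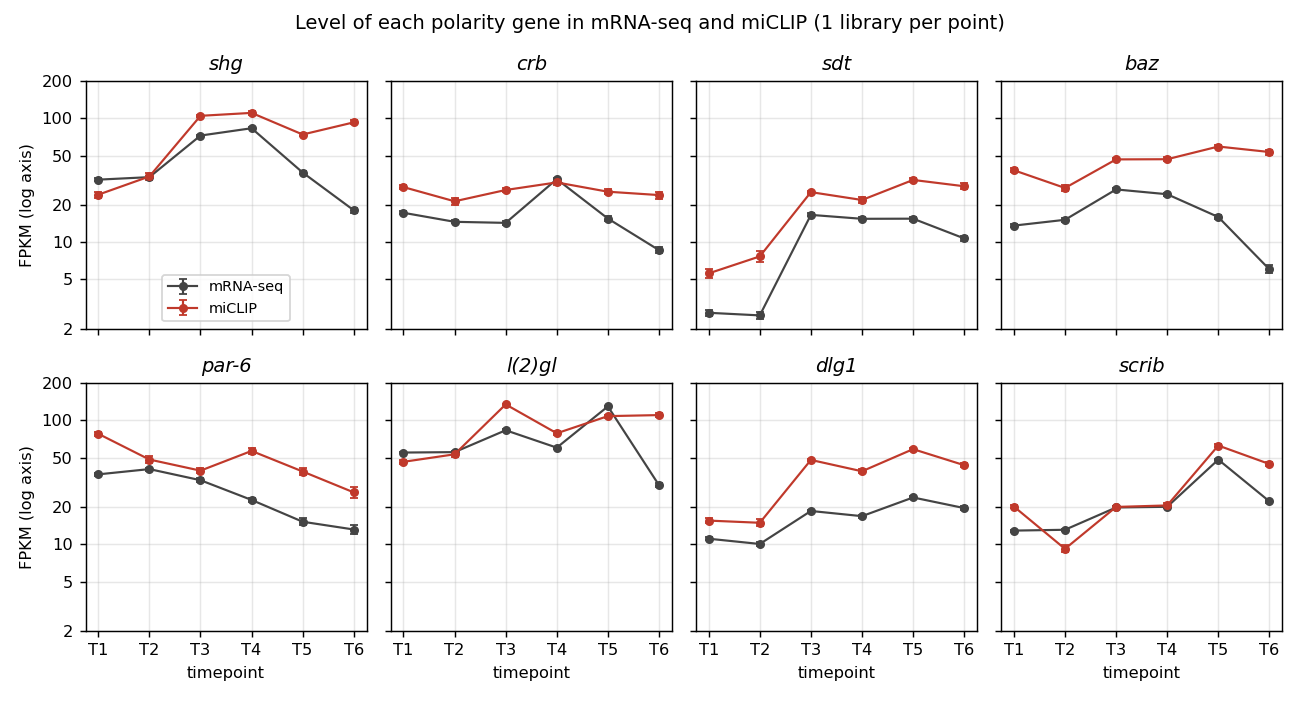
FPKM (log axis) of each of the 8 genes against timepoint, T1 to T6, in mRNA-seq (grey) and miCLIP (red), with 1 library per point and 95% counting intervals as bars. The lines part in T6 for *shg*, *baz* and *l(2)gl*, where mRNA-seq was at 18.1, 6.03 and 30.0 FPKM and miCLIP at 92.8, 53.4 and 110.3.

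Across the 6 mRNA-seq libraries, the highest level of a gene was 2.37 times (*dlg1*) to 6.48 times (*sdt*) the lowest, with a median of 4.03. Over the 6365 genes at 1 FPKM or more in every mRNA-seq library this median was 3.48, and 6 of the 8 genes lay above it. When scaled, it was 7.60 for the 8 genes and 5.49 for all, with 5 of 8 above. In miCLIP the median was 3.45 for the 8 genes and 5.15 for the 5060 genes at this threshold, and 6 of the 8 genes lay below it. Only *sdt* (5.68-fold) and *scrib* (6.83-fold) had a wider range than the median gene in miCLIP, and when scaled no gene did (3.43 against 6.70).

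The order of the genes by mRNA level changed with age. In T1 it was *l(2)gl*, *par-6*, *shg*, *crb*, *baz*, *scrib*, *dlg1* and *sdt*, the counting intervals of all neighbours were apart, and the highest level was 20.4 times the lowest. T2 had the same order except that *baz* (15.2) and *crb* (14.6) changed places with intervals that overlap. By T4 *shg* was highest and *l(2)gl* second, and the span was 5.39-fold. In T5 *baz*, *crb*, *sdt* and *par-6* were together between 15.2 and 16.0 FPKM, with overlapping intervals between neighbours. In T6 the 3 basolateral genes *l(2)gl*, *scrib* and *dlg1* held the first 3 places, with *shg* next at an interval that overlaps that of *dlg1*. In miCLIP, *l(2)gl* and *shg* were the first pair from T3 to T6, with *shg* ahead in T4, while *par-6* was first in T1. Ratios within a library do not depend on the scaling of libraries, but all levels across genes depend on the gene lengths used.

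Genes whose products bind each other did not keep a fixed ratio of mRNA. *crb* was 6.42 times *sdt* in T1 (95% interval 6.02 to 6.85) and 5.70 times in T2, but 0.862 times in T3 (0.826 to 0.899). It was 2.09 times *sdt* in T4, 1.002 times in T5 and 0.804 times in T6. *Patj*, which encodes another Crumbs complex scaffold, was likewise 8.19 times *sdt* in T1, 8.96 times in T2 and 1.25 to 2.02 times from T3 on. The early libraries therefore held messages of *crb* and *Patj* at several times the level of *sdt*, and in miCLIP *crb* was 4.97 times *sdt* in T1 and 1.04 times in T3.

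*baz* was 0.371 times *par-6* in T1 (0.355 to 0.388), 0.375 times in T2 and 0.811 times in T3. The pair was near equal in T4 (1.07 times) and T5 (1.05 times, 0.974 to 1.13), and *baz* was 0.459 times *par-6* in T6. In miCLIP the T6 ratio lay on the other side of 1, at 2.04 times (1.83 to 2.28). The kinase gene *aPKC* was 0.526 times *par-6* in T1 and 1.53 times in T5.

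In the basolateral module, *l(2)gl* was 4.27 times *scrib* in T1, 4.24 times in T2 and 4.203 times in T3, then 3.003, 2.69 and 1.35 times in T4 to T6. *scrib* and *dlg1* were within 1.30-fold of each other in 5 of the 6 mRNA-seq libraries, and in T5 *scrib* was 2.02 times *dlg1* (1.96 to 2.08). In miCLIP *scrib* was the lower of the pair from T2 to T4, at 0.417 times *dlg1* in T3.

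**Figure D2:**
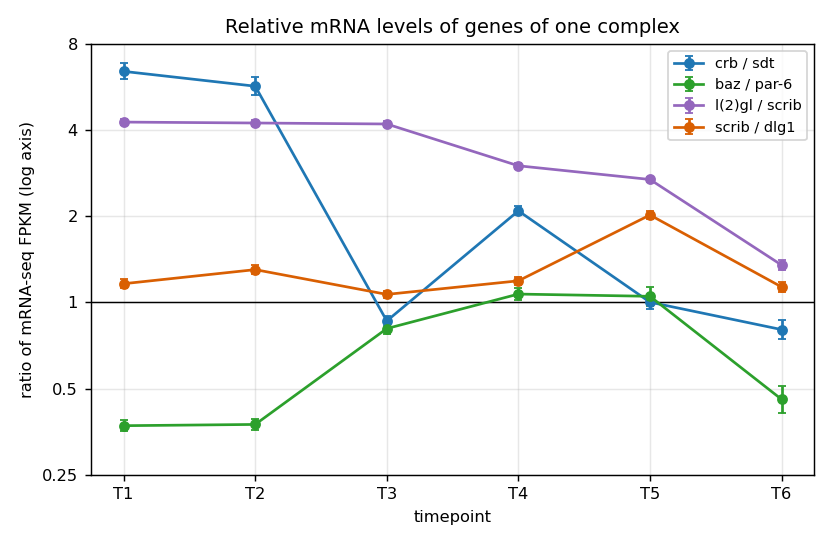
Ratio of mRNA-seq FPKM (log axis) within 4 pairs of genes against timepoint, with 95% counting intervals as bars and 1 library per timepoint. *crb* over *sdt* went from 6.42 in T1 to 0.862 in T3, and *l(2)gl* over *scrib* was at 4.203 to 4.27 in T1 to T3 and at 1.35 in T6.

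*shg* was also compared with genes of its own junction. Its main cytoplasmic partner *arm*, the fly β-catenin, was above *shg* in every mRNA-seq library, and *shg* was 0.115 to 0.233 times *arm*. *shg* was 0.297 to 0.876 times *alpha-Cat*, which links the junction to actin, with the highest value in T4. Against *CadN*, the classical cadherin known from neurons, *shg* was 54.5 times in T1, 55.6 times at T2, 16.0 times at T3, 7.05 times at T4, 2.01 times at T5 and 1.41 times at T6. The sum of the 3 neuronal marker genes was 1.89 FPKM in T1, 56.3 in T4 and 118.7 in T6, and its part in the ratio was not tested. The markers did not move alike, since *elav* was highest in T4 (49.7) and at 9.57 in T6, while *nSyb* went from 5.08 to 81.4.

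Steps between neighbouring mRNA-seq libraries were taken as differences of log2(FPKM + 1) for genes at 1 FPKM or more in at least 1 of the libraries, and counted past 2-fold. Neighbouring steps share a library and are not independent of each other. Between T1 and T2 none of the 8 genes was past 2-fold, where 0.352% of 7104 genes were higher and 5.74% lower, and their log2 differences ran from -0.23 (*crb*) to 0.15 (*baz*). Between T2 and T3, when the zygotic genome becomes active, 2 of 8 were over 2-fold higher and 0 lower, against 20.8% and 12.4% of 7820 genes. These were *sdt* (2.31) and *shg* (1.09). *sdt* stood at percentile 94.8 of all genes, with a ratio of 6.48 (6.05 to 6.95). *dlg1* (0.82), *baz* (0.78), *l(2)gl* (0.58) and *scrib* (0.56) were higher by less than 2-fold, and *crb* (-0.03) and *par-6* (-0.29) were not higher. With the libraries scaled, *sdt* was at 2.17 and *shg*, at 0.72, was below 2-fold.

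Between T3 and T4, *crb* was the single gene past 2-fold, at 1.12 or 2.25 times its T3 level (2.17 to 2.34), against 24.9% of 9071 genes higher and 11.2% lower. Its log2 difference was 1.14 with the libraries scaled and 0.99 when centred on the median of all genes. The other genes lay between -0.51 (*par-6*) and 0.19 (*shg*).

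Between T4 and T5 the 3 basolateral genes were higher as deposited, *scrib* by 1.22, *l(2)gl* by 1.09 and *dlg1* by 0.48. *dlg1* was at -0.27 with the libraries scaled. Among partner genes, the apical *aPKC* was at 16.3 FPKM in T4 and 23.2 in T5, and *Patj* at 24.2 and 20.9. *yrt*, the gene of a lateral protein, was at 23.9 and 14.5, so a division by side is not shown beyond the 8 genes. Of the other members, *shg* (-1.17), *crb* (-1.01), *baz* (-0.58) and *par-6* (-0.55) were lower, and *sdt* was at 0.00. Thus 2 of 8 were over 2-fold higher and 2 over 2-fold lower, against 34.1% and 9.35% of 10498 genes. The step also depends on the scale, since the median of all genes was 0.35 as deposited and -0.36 when scaled. In reads, *scrib* had 11357 in T4 and 17399 in T5, *l(2)gl* 11728 and 16092, and *dlg1* 6051 and 5459. The T4 and T5 libraries held 25486971 and 24668256 reads on genes. Relative to the median as deposited *scrib* was at 0.88, *l(2)gl* at 0.74, *dlg1* at 0.13 and *sdt* at -0.35. When scaled, *scrib* (0.48) and *l(2)gl* (0.32) were below 2-fold and *baz* (-1.35) and *par-6* (-1.32) were past it. The calls of all genes moved too. Of those past 2-fold, 78.5% were higher as deposited and 45.4% when scaled.

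Between T5 and T6 all 8 genes were lower, also when scaled or centred, while the median of all genes was 0.13 (-0.27 when scaled). *l(2)gl* was lower by the most, at -2.08, which is 4.32-fold (4.16 to 4.50), followed by *baz* (-1.27) and *scrib* (-1.09). These are 3 of 8 genes over 2-fold lower, against 10.5% of 10642 genes, and 0 were higher, against 16.2%. *shg* was at -0.97, just inside the threshold, and *dlg1* (-0.27) and *par-6* (-0.19) were nearest to 0. With the libraries scaled, *shg* (-1.40) and *crb* (-1.19) were past 2-fold too. Of all genes past 2-fold in this step, 60.8% were higher as deposited and 37.7% when scaled. The summed FPKM of the 8 genes was 300.4 in T5 and 128.4 in T6. Beside this, the sum of 2 muscle genes was 2479 and 1987, that of 3 epidermal genes 294.7 and 144.5, and that of 3 neuronal genes 102.2 and 118.7, and the part of these tissues in the difference was not tested.

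The same steps in miCLIP were computed after the values had been seen. From T1 to T2 only *scrib* was past 2-fold, at -1.06 with 21.6% of 7304 genes lower and 34% higher, whereas its mRNA-seq step was 0.02. From T2 to T3, 5 of 8 genes were over 2-fold higher, against 33.4% of 8702 genes, and 0 lower, against 17.4%. They were *dlg1* (1.62), *sdt* (1.60), *shg* (1.60), *l(2)gl* (1.32) and *scrib* (1.05, or 0.98 when scaled). From T3 to T4 no gene was past 2-fold, where 23.3% of 9702 genes were higher and 12.5% lower, and *crb*, the gene that changed in mRNA-seq, was at 0.20.

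From T4 to T5 *scrib* was over 2-fold higher at 1.56, with 34.6% of 10777 genes higher and 20.5% lower, and it was at 1.09 when scaled. *dlg1* (0.58), *sdt* (0.52), *l(2)gl* (0.46) and *baz* (0.33) followed, and *shg* (-0.57), *par-6* (-0.54) and *crb* (-0.24) were lower. With the libraries scaled *l(2)gl* was at -0.04 and *baz* at -0.16, and *shg* (-1.07) and *par-6* (-1.04) were over 2-fold lower. From T5 to T6 no gene was past 2-fold, where 18.5% of 10703 genes were higher and 20.9% lower. The 8 genes lay between -0.54 (*par-6*) and 0.32 (*shg*), with a median of -0.15 against -0.06 for all genes, and *l(2)gl* and *baz*, the genes furthest down in mRNA-seq, were at 0.03 and -0.14 (-0.27 and -0.44 when scaled).

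**Figure D3:**
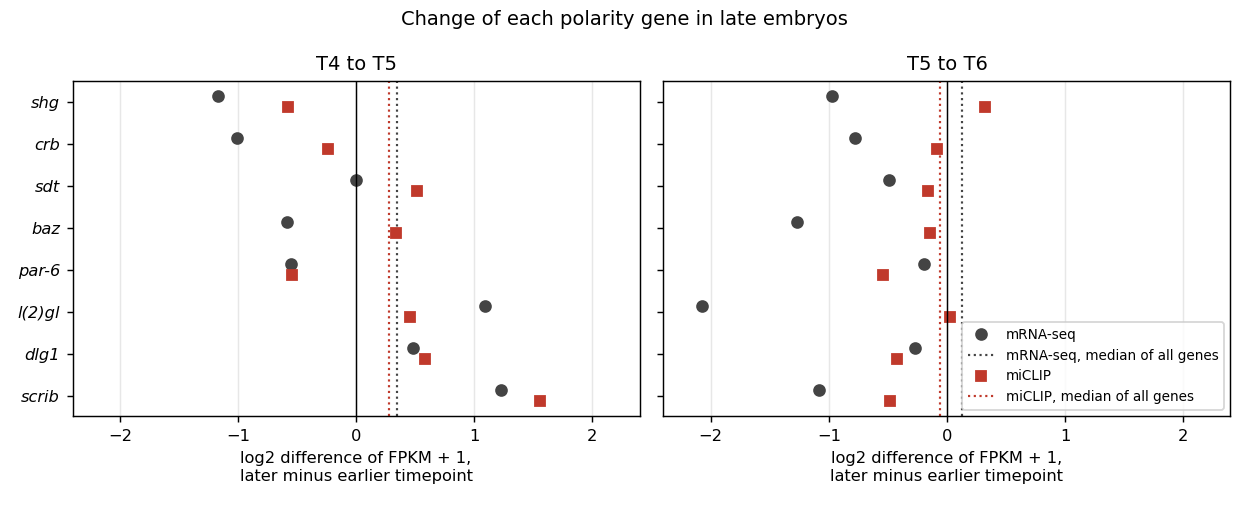
Difference of log2(FPKM + 1), later minus earlier timepoint, for each of the 8 genes in mRNA-seq (grey circles) and miCLIP (red squares), from T4 to T5 on the left and from T5 to T6 on the right, with 1 library per value and dotted lines at the median of all genes. The mRNA-seq values of *scrib*, *l(2)gl* and *dlg1* lie to the right of 0 in the left panel (1.22, 1.09 and 0.48), and all 8 lie to the left of 0 in the right panel.

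The ratio of miCLIP over mRNA-seq was taken within each timepoint as a difference of log2(FPKM + 1), for genes at 1 FPKM or more in the pair of libraries. Over 2-fold higher in miCLIP were 2 of the 8 genes at T1, 1 at T2, 1 at T3, 2 at T4, 4 at T5 and 6 at T6. Of all genes tested, 24.8%, 11.8%, 9.96%, 8.14%, 14.3% and 20.6% were over 2-fold higher in these timepoints. In no timepoint was any of the 8 genes over 2-fold lower, against 16.3%, 10.8%, 6.63%, 7.26%, 16.5% and 27.3% of all genes. In T1 to T3 the counts are near what these shares give for 8 genes, and in T4 to T6 they are above it. The median ratio of the 8 genes was 0.63, 0.39, 0.63, 0.44, 0.997 and 1.35 in T1 to T6, and that of all genes was 0.28, 0.01, -0.08, -0.07, -0.07 and -0.16.

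Scaling moved the median ratio of all genes by -0.55 at T1, -0.39 at T2, -0.12 at T3, -0.31 at T4, -0.04 at T5 and 0.09 at T6. The ratios of T1, T2 and T4 therefore moved more between these 2 scales than those of T5 and T6. An equal sum is only 1 choice of scale, so a small move does not show that a ratio is free of the library factor. The counts in T1 and T4 were 0 when scaled, that of T5 was 3 and that of T6 was 8. The calls of all genes moved too. Of all genes past 2-fold, the share higher in miCLIP went with scaling from 60.3% to 32.4% in T1 and 52.9% to 24.0% in T4. It went from 46.5% to 44.5% in T5 and 43.0% to 46.9% in T6. The share of all genes tested is not given for scaled libraries.

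For *shg* the log2 ratio was -0.39 at T1, 0.02 at T2, 0.52 at T3, 0.41 at T4, 1.001 at T5 and 2.30 at T6. In T6 miCLIP was 5.13 times mRNA-seq (4.82 to 5.46), from 2540 and 1643 reads. *shg* moved from percentile 27.5 of all genes in T1 to 93.2 in T6. When scaled, T1 was at -0.95, T2 at -0.37, T5 just below 2-fold at 0.97 and T6 at 2.39.

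The apical genes were *crb*, with 0.66, 0.52, 0.84, -0.08, 0.68 and 1.38, and *sdt*, with 0.84, 1.28, 0.58, 0.48, 0.99 and 1.32. The lowest *crb* ratio was that of T4, the library with the *crb* mRNA peak. *sdt* was above 0 in all 6 timepoints, also when scaled, and past 2-fold in T2 (2.99 times, 2.66 to 3.36) and T6. It stood just below 2-fold in T5, where the ratio without a pseudocount was 2.05 times (1.95 to 2.16).

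*baz* had a log2 ratio of 1.42 at T1, 0.81 at T2, 0.78 at T3, 0.91 at T4, 1.83 at T5 and 2.95 at T6. Its T6 ratio was the largest among the 48 ratios of the 8 genes, at 8.86 times (8.10 to 9.69), and it stood at percentile 95.6 in T5 and 96.0 in T6. *par-6* had 1.07, 0.25, 0.25, 1.28, 1.29 and 0.94, so its high ratios were those of T1, T4 and T5, and T2 was at -0.14 when scaled. The T6 library held 405 *par-6* reads in miCLIP, and its ratio of 1.99 times had an interval of 1.76 to 2.26 that includes 2.

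The basolateral genes differed from each other. *l(2)gl* had -0.24, -0.06, 0.69, 0.38, -0.26 and 1.85, with T5 and T6 on opposite sides of 0. *dlg1* had 0.45, 0.53, 1.32, 1.16, 1.26 and 1.11, over 2-fold in each timepoint from T3 on and at percentiles 94.2, 94.0, 90.01 and 81.4. When scaled, *dlg1* was at -0.07 in T1 and, with 0.87, below 2-fold in T4. *scrib* had 0.61, -0.47, 0.01, 0.04, 0.37 and 0.97 and was past 2-fold in no timepoint, although without a pseudocount T6 was at 2.00 times (1.92 to 2.08).

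**Figure D4:**
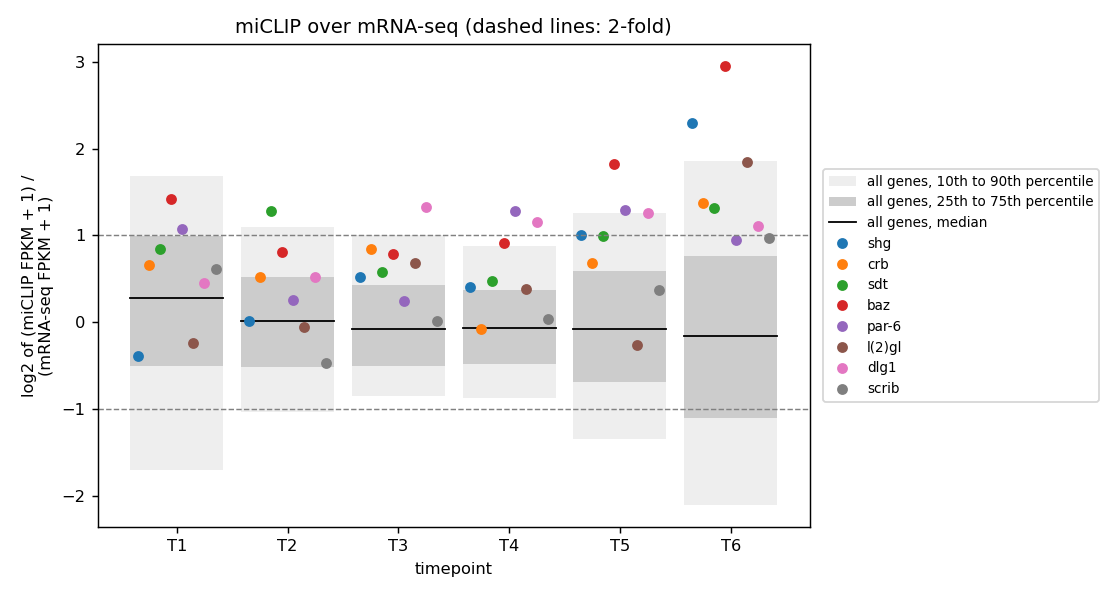
Log2 ratio of miCLIP over mRNA-seq (FPKM + 1) of each of the 8 genes by timepoint, with 1 library pair per timepoint, drawn over the percentiles of all genes tested (10th to 90th light, 25th to 75th dark, median as a line) and dashed lines at 2-fold. In T6 all 8 genes lie above the median of all genes (-0.16), from 0.94 (*par-6*) to 2.95 (*baz*).

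Since T6 miCLIP resembled T5 mRNA-seq, its values were also divided by that library. Over T5 mRNA-seq 2 of the 8 genes were over 2-fold higher, *baz* (1.68) and *shg* (1.32), where 14.2% of 8884 genes were higher and 19.5% lower. *dlg1* (0.84), *sdt* (0.83), *par-6* (0.75) and *crb* (0.60) were above 0 and short of 2-fold. *l(2)gl* (-0.23) and *scrib* (-0.12) were below 0, while over T6 mRNA-seq they were at 1.85 and 0.97. With 1 library of each, a mismatch of the T6 libraries and a difference in methylation cannot be told apart.

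**Figure D5:**
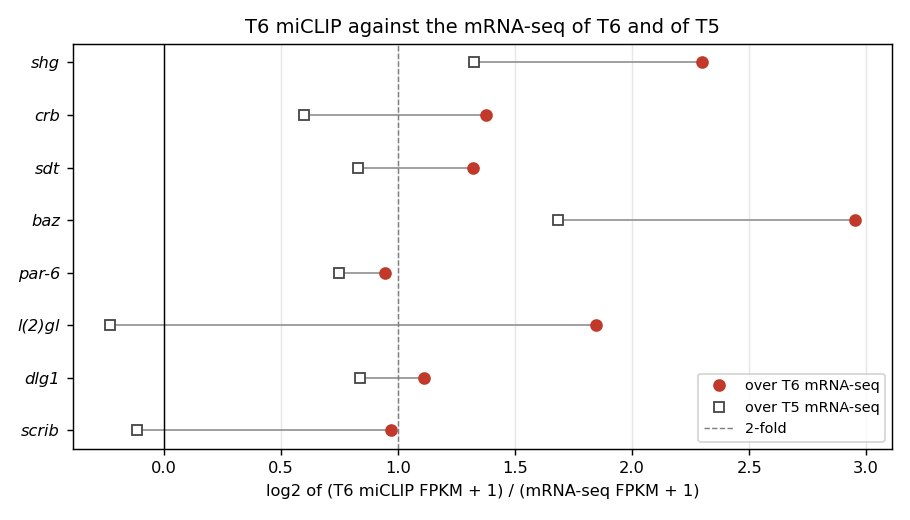
Log2 ratio of T6 miCLIP (FPKM + 1) over T6 mRNA-seq (red circles) and over T5 mRNA-seq (open squares) for each of the 8 genes, with 1 library in each place and a dashed line at 2-fold. *baz* and *shg* lie past 2-fold on both measures, and *l(2)gl* goes from 1.85 to -0.23.

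The 6 timepoints also give 6 pairs of libraries, and a difference shared by them was fitted after the values had been seen. In this limma fit on log2(FPKM + 1), with the timepoint as block and 4802 genes at 1 FPKM or more in all libraries, the timepoints stand in for replicates. A ratio that changes with age thus counts as error. At a Benjamini-Hochberg adjusted p under 0.05, 3 of the 8 genes were higher in miCLIP and 0 lower, against 6.87% and 2.5% of all genes. At an unadjusted limma p under 0.05, 5 of the 8 were higher and 0 lower, against 713 and 631 of the 4802 genes. *baz* was higher by 1.45 (SE 0.31, adjusted p = 0.0236), *dlg1* by 0.97 (SE 0.22, adjusted p = 0.0267) and *sdt* by 0.92 (SE 0.21, adjusted p = 0.0295), each above 0 in 6 of 6 timepoints.

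*par-6* was at 0.85 with a limma adjusted p of 0.051, and *crb*, *shg*, *l(2)gl* and *scrib* were at 0.67, 0.64, 0.39 and 0.25, with adjusted p from 0.103 to 0.521. On scaled libraries 0 of the 8 genes passed in limma. Of all genes, 3.37% were then higher and 7.02% lower, the reverse of the order as deposited. At an unadjusted limma p under 0.05 on scaled libraries, 4 of the 8 were higher and 0 lower, against 411 and 1169 of 4802 genes. The Benjamini-Hochberg adjusted p in limma of *baz*, *sdt* and *dlg1* were 0.0502, 0.0677 and 0.0792. None passed without T3, T4 or T5, only *baz* without T6, *baz* and *dlg1* without T2, and the same 3 genes without T1. Of all genes, 2.42%, 2.62% and 2.1% were higher without T3, T4 and T5. They were 4% without T6, 4.5% without T2 and 9.39% without T1. Over these alternatives and a fit with no block, the limma adjusted p of *baz* ran from 0.0214 to 0.0911, that of *dlg1* from 0.0128 to 0.314 and that of *sdt* from 0.0241 to 0.540.

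A list of 24 partner genes of these pathways was described by the same measures, and all 24 were in the table. Between 20 and 24 of them could be tested in a timepoint, and 5, 0, 5, 2, 5 and 8 were over 2-fold higher in miCLIP in T1 to T6, while 1 was lower in T1 and 1 in T5. The shares of all genes given above for the same timepoints apply here too, among them 24.8% in T1 and 20.6% in T6. Their median ratios were 0.28, -0.04, 0.48, 0.27, 0.35 and 0.67, each lower than that of the 8 genes. The direct partners of the 8 genes differed among themselves. *arm* had log2 ratios of -0.64 to 0.62 and was above 0 only in T6, *alpha-Cat* had -1.29 to 0.64, and *Patj* was below 0 in all 6 timepoints (-0.74 to -0.17). *aPKC* had -0.33 to 0.95 and was above 0 in 5 of 6 timepoints. *CadN* could be tested in T3 to T6, with 1.04, 0.27, 0.80 and 1.30, past 2-fold in T3 and T6. Over T5 mRNA-seq the T6 ratio of *arm* was -0.22, that of *aPKC* 0.09 and that of *CadN* 0.84.

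The partner genes past 2-fold in at least 4 timepoints, all of them higher in miCLIP, were *yrt*, *Rap1* and *Fas3*. *yrt* encodes Yurt, a lateral protein that opposes Crumbs, and its ratio was 0.67 to 1.31, with 3 of its 4 calls left when scaled. *Rap1*, a small GTPase of junction assembly, had 0.50 to 1.80 and passed 2-fold in 5 timepoints, and *Fas3*, an adhesion protein of lateral membranes, had 1.07 to 4.36 in the 5 that could be tested. When scaled, *Rap1* and *Fas3* passed 2-fold in 4 timepoints each. The highest *Fas3* ratio was that of T6, which over T5 mRNA-seq was 1.76, next to 1.04 for *Rap1* and 0.97 for *yrt*. In T3 mRNA-seq the list ran from *14-3-3epsilon*, a binding protein of phosphorylated targets, at 765 FPKM down to the cadherin gene *CadN2* at 0.0527.

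The partners moved between mRNA-seq libraries in some steps like the 8 genes and in others not. From T2 to T3, 4 of 23 were over 2-fold higher and 2 lower, where 20.8% and 12.4% of all genes were, and *arm* was at 1.92, next to 1.09 for *shg*. From T3 to T4, 8 of 23 were higher and 0 lower (24.9% and 11.2% of all genes), while *crb* was the only one of the 8 genes past 2-fold. From T4 to T5, 4 of 24 were higher and 1 lower (34.1% and 9.35% of all genes). Their median was -0.08 in that step, against -0.28 for the 8 genes and 0.35 for all genes. From T5 to T6, 0 of 24 were higher and 4 lower (16.2% and 10.5% of all genes), with a median of -0.38 against -0.88 for the 8 genes. *arm* was at -0.84, *Patj* at -0.61, *aPKC* at -0.50 and *alpha-Cat* at -0.24 in that step.

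Among the 8 genes, the Pearson correlation of log2(FPKM + 1) over the 12 libraries was highest for *sdt* and *dlg1* (0.91) and for *crb* and *baz* (0.83), and lowest for *par-6* and *scrib* (-0.37). Over the 6 mRNA-seq libraries *shg* and *baz* were the pair with the highest value (0.96). These are descriptions over libraries that share RNA samples and depth. Among 8478 genes, those most like each gene over the 12 libraries were *Nrt* (0.96) and *sdk* (0.95) for *shg*, *dap* (0.88) and *sn* (0.88) for *crb*, and *CG30089* (0.97) and *roX1* (0.97) for *sdt*. They were *CG34401* (0.96) and *CG43736* (0.95) for *baz* and *Vps11* (0.93) and *CG1737* (0.93) for *par-6*. For the basolateral genes they were *Ptr* (0.89) and *CG7611* (0.86) for *l(2)gl*, *pan* (0.96) and *A2bp1* (0.96) for *dlg1*, and *Atg18b* (0.96) and *nahoda* (0.95) for *scrib*.

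Whole-gene values do not separate transcripts, and the 8 genes differ in how many they have. In the BDGP6.54 annotation *shg* has 1 transcript, *par-6* 2, *crb* and *baz* 4 each, *l(2)gl* 11, *sdt* 14, *scrib* 18 and *dlg1* 21. *sdt*, *baz*, *par-6* and *dlg1* are on X, *crb* and *scrib* on 3R, *shg* on 2R and *l(2)gl* on 2L. Apart from transposable elements at *baz* and *l(2)gl*, the only exon overlap with another gene is a stretch of 3 bases between *baz* and *TTLL1A* on the opposite strand. Which transcript or part of a gene the miCLIP reads come from cannot be read from these values.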

How the data were processed

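The values are FPKM per gene, made and deposited by the authors in 1 table of 6 mRNA-seq and 6 miCLIP columns. Per the paper's methods, adaptors were trimmed with Flexbar, pyCRAC removed PCR duplicates, and paired reads were mapped to fly release r5.45 with Subread-align. featureCounts gave the counts per gene, and DEseq the FPKM. Tool versions, gene lengths and the strand setting are not given in the sources used here. Columns were matched to libraries by name, and 0 value columns were left unused. The table holds no columns of the authors' own comparisons.

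Reads per gene were recovered from the steps of the FPKM values for 13982 genes, and 995 genes had no read. Each value had to lie within 0.03 reads of a whole number, with a wider tolerance for any gene that failed this. The recovery was tested on data simulated from the same relation of value to reads, which does not test whether the library factor is right. Ratios are differences of log2(FPKM + 1) called past 2-fold, for genes at 1 FPKM or more in the miCLIP and mRNA-seq libraries of a timepoint, or in at least 1 library of a step. A pseudocount understates the ratio of low genes. Intervals are exact Clopper-Pearson (ratios) or Poisson (levels) at 95%. They cover counting error only. Whether a recovered read is a single read or a read pair is not given. If both reads of a pair were counted, the intervals are too narrow. The spread between embryo collections and library preparations is not covered, and any PCR copies left are not independent molecules. Depth was 4251686 to 14484576 reads on genes in miCLIP and 23127955 to 25486971 in mRNA-seq. Within a timepoint no test was made, as each place holds a single library, and no count model was run. The only test is a limma fit of miCLIP against mRNA-seq over the 6 timepoints on log2(FPKM + 1), with the timepoint as block. The fit was tested on simulated data with independent errors and no shift of whole libraries, so that simulation does not cover such a shift.

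The members and the gene lists were chosen with earlier results of these data known. The genes named are the 8 members, partner genes past 2-fold in 4 or more timepoints in 1 direction, the partner genes highest and lowest in T3 mRNA-seq, the direct partners *arm*, *alpha-Cat*, *Patj*, *aPKC* and *CadN*, and the 2 genes most correlated with each member among those at 1 FPKM or more in 6 or more libraries. Alternatives were a pseudocount of 0.1, no filter on low values (genes above 0 anywhere), libraries scaled to a sum of 1000000, centring on the median of all genes, a threshold of 1.5-fold and T5 mRNA-seq as the denominator of T6 miCLIP. The values had been seen when ratios without a pseudocount, the miCLIP steps, the fit over timepoints and the T5 denominator for partner genes were added. BDGP6.54 was used for chromosome arms, transcripts and overlaps, and no coordinates are given because it is a later assembly. Of the marker genes, *Mhc* and *wupA* were not matched in the table by symbol and are not used here. Python 3.11.15, numpy 2.4.6, scipy 1.17.1, pandas 2.3.3, matplotlib 3.10.9, R 4.3.3 and limma 3.58.1 were used.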

Additional observations from a re-analysis of the deposited data

Results flagged for a closer look

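For 4 genes the ratio of miCLIP over mRNA-seq lay on opposite sides of 0 in 2 timepoints, with counting intervals that exclude equal levels at both as deposited. For each gene these were the timepoints of its highest and lowest ratio. Where 0 lies depends on the library factors, which the intervals do not cover. The T4 ratio of *crb* was -0.02 when centred on the median of all genes and -0.40 when scaled. The log2 ratio of *shg* was 2.30 in T6 and -0.39 in T1, and that of *crb* was 1.38 in T6 and -0.085 in T4. *l(2)gl* was at 1.85 in T6 and -0.26 in T5, and *scrib* at 0.97 in T6 and -0.47 in T2. The higher value was that of T6 in each case, and with 1 library per assay and timepoint the difference between timepoints was not tested. Over T5 mRNA-seq the T6 values of *l(2)gl* (-0.23) and *scrib* (-0.12) were on the same side of 0 as their other value, while *shg* (1.32) and *crb* (0.60) stayed above 0.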

How the results depend on the processing

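In the limma fit over the 6 timepoints, paired by timepoint, 3 of the 8 genes were higher in miCLIP. The count was 0 with no timepoint block and 0 with libraries scaled, and 0 to 3 without 1 timepoint (0 without T3, T4 or T5 and 1 without T6). Of all genes, 6.87% were higher in the main fit, 1.44% with no block and 3.37% when scaled, and 2.1% to 9.39% without 1 timepoint. A pseudocount of 0.1 or none, from recovered reads, changed no direction of the 8 genes and lost none of the 16 ratio calls, and added at most 3. The scale of the libraries mattered more. With libraries scaled to the same sum, the 8 genes over 2-fold higher in miCLIP numbered 0 in T1, 0 in T4, 3 in T5 and 8 in T6, those higher in mRNA-seq 1 from T2 to T3 and 0 from T4 to T5, those lower 4 from T4 to T5 and 5 from T5 to T6, and those lower in miCLIP 2 from T4 to T5. Centred on the median of all genes, the ratio counts were 1 in T1, 5 in T5 and 8 in T6, and the higher mRNA-seq steps numbered 1 from T2 to T3, 0 from T3 to T4 and 0 from T4 to T5. At 1.5-fold, the ratio counts were 5, 2, 4, 3, 6 and 8 in T1 to T6. The mRNA-seq steps at 1.5-fold were 4 higher from T2 to T3 and 5 lower from T5 to T6. Those in miCLIP were 2 lower from T1 to T2 and 1 lower from T3 to T4. As deposited, the 75th percentile of the ratios of all genes was itself past 1.5-fold in T1, T5 and T6 (0.995, 0.592 and 0.767). For the scaled, centred and 1.5-fold counts no share of all genes tested is given. These counts show only how the calls moved with the processing. Over T5 mRNA-seq the T6 count was 2, and *l(2)gl* turned from 1.85 to -0.23. Of all genes past 2-fold, the share higher in miCLIP went with scaling from 60.3% to 32.4% in T1, 52.3% to 24.1% in T2, 60.0% to 47.6% in T3 and 52.9% to 24.0% in T4. The share higher in mRNA-seq went from 62.6% to 46.9% (T2 to T3), 78.5% to 45.4% (T4 to T5) and 60.8% to 37.7% (T5 to T6), and in miCLIP from 62.9% to 49.3% (T4 to T5) and 47.0% to 36.7% (T5 to T6).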

Other observations

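Some other partner genes, chosen for high values after these were seen, also had their highest ratio of miCLIP over mRNA-seq in T6. *ed*, which encodes the adhesion protein Echinoid, was at 166 FPKM in miCLIP against 22.4 in mRNA-seq, which is a log2 ratio of 2.83. *pyd*, the fly ZO-1, had 83.8 and 12.1, a log2 ratio of 2.70, and *cno*, a junction linker to actin, had 57.1 and 15.0, a log2 ratio of 1.86. Over T5 mRNA-seq the T6 ratios were smaller, at 1.54 for *ed*, 1.36 for *pyd* and 1.17 for *cno*. In T1 these genes were at -0.20, 0.87 and 0.10. Of the 23 partner genes tested in T6, 8 were over 2-fold higher and 0 lower, against 20.6% and 27.3% of all genes. The 90th percentile of all genes in T6 was 1.86. Some partner genes were below 0 in T6, among them *Lkb1* (-0.70) and *14-3-3zeta* (-0.50). *veli*, whose product joins the Crumbs complex, was the partner gene with the lowest ratio, at -2.69 in T5, from 79 miCLIP and 1311 mRNA-seq reads.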
